A study of Mus musculus with 9 samples.

Results

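The mouse mitochondrial genome is a small circular DNA molecule that carries 37 genes, of which 13 code for proteins, 2 for ribosomal RNAs (rRNA) and 22 for transfer RNAs (tRNA). All rows of the deposited table whose Ensembl identifier maps to a symbol starting with mt- were taken, which gave these 37 genes out of 55359, and no measured value entered the choice. Both strands are transcribed into long precursor RNAs in which tRNAs lie between most of the protein and rRNA genes. The tRNAs are cut out, which frees the messenger RNAs and rRNAs, and most of the messenger RNAs then receive short poly(A) tails. The heavy strand carries 28 of the genes (12 protein, 2 rRNA and 14 tRNA genes) and the light strand the other 9 (mt-Nd6 and 8 tRNA genes). The proteins are core subunits of respiratory chain complexes I, III and IV and of ATP synthase, on which the tubule cells of the kidney depend for the energy of solute transport.

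RNA of whole kidney was sequenced in 9 mouse libraries, 3 in each of 3 groups. In both HFD-STZ groups the diet, begun when the mice were 6 weeks old, drew 49% of its calories from fat (HFD). These mice were also given streptozotocin (STZ), a toxin of insulin-producing cells, in 2 injections of 30 mg/kg, the first on day 60 and the second on day 63. HFD-STZ DHZ mice were then dosed by mouth with dehydrozingerone (DHZ) at 50 mg/kg for 2 weeks, HFD-STZ vehicle mice got the vehicle, and NCD vehicle mice ate a normal calorie diet with 11.32% of calories from fat and got the vehicle. Group names follow the sample titles, because the compound stands in the treatment label of all 9 libraries, vehicle ones included. The labels used here state neither sex nor strain. They also do not say that the 3 libraries of a group came from separate animals, so a p-value speaks only of the spread among these libraries. Every library carries its own batch date, in the order of the groups, and a batch effect cannot be told apart from a group effect.

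The libraries held 15.1 to 47.5 M counts (M for mega), of which 2.13 to 15.2 M fell on nuclear protein-coding genes. The lowest nuclear total and the lowest scaling factor (0.327, against 0.715 to 1.63 in the other libraries) belonged to HFD-STZ vehicle 2, which stood apart from the rest. Y-linked transcripts were above 10 counts per M in 4 of the 9 libraries (HFD-STZ DHZ 3, HFD-STZ vehicle 2 and 3, NCD vehicle 1) and at most 0.209 in the others. The proximal tubule list, 13 markers all detected in every library, summed to 2004 to 2883 counts per M in HFD-STZ DHZ, 1375 to 4143 in HFD-STZ vehicle and 2317 to 5506 in NCD vehicle, and these overlapped. Of the 12 lists for other cell types, 7 had summed levels that did not overlap in some comparison. Distal convoluted and connecting tubule markers summed to 511 to 905 CPM in HFD-STZ DHZ, below 952 to 1067 in HFD-STZ vehicle and 1063 to 1272 in NCD vehicle. Podocyte markers summed to 72.4 to 92.1 in HFD-STZ DHZ, 24.0 to 45.2 in HFD-STZ vehicle and 53.4 to 74.0 in NCD vehicle, with HFD-STZ vehicle below both. Fibroblast and pericyte markers (44.0 to 63.5 against 87.6 to 94.8) and intercalated cell markers (90.2 to 113.4 against 113.5 to 130.3) summed to less in HFD-STZ vehicle when set against NCD vehicle. Collecting duct, intercalated cell and macrophage markers summed to less in HFD-STZ DHZ when set against NCD vehicle. Single markers did not all follow these sums. In that comparison 2 macrophage markers were counted as higher and 1 as lower. Of the distal convoluted and connecting tubule markers 1 was counted as higher and 3 as lower. White fat markers had 25.1 to 78.8 CPM in HFD-STZ DHZ, all above the 10.4 to 21.0 of HFD-STZ vehicle. A list of 5 RNAs that stay in the nucleus, taken as a sign of RNA quality, summed to 10047 to 15561, 34290 to 98107 and 16425 to 48789 counts per M in the same order of groups. Of these, Malat1 alone equalled 4.96%, 3.96% and 6.76% of the nuclear protein-coding count in HFD-STZ DHZ libraries, 15.4%, 33.7% and 15.1% in HFD-STZ vehicle libraries and 19.5%, 8.17% and 7.07% in NCD vehicle libraries. The part of these differences in the results that follow was not tested.

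Between groups, 4 tRNA genes and 1 protein gene passed the test in some comparison. The sequences of the 4 tRNA genes are shown 5′ to 3′ on their own strand with the anticodon, which pairs with the codon on the messenger RNA, in capitals (transcripts of the GENCODE annotation of build GRCm38).
mt-Ts1: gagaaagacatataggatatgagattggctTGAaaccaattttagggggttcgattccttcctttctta
mt-Tw: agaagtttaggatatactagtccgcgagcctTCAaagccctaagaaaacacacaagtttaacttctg
mt-Tl1: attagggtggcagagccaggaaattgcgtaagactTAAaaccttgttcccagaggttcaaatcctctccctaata
mt-Tp: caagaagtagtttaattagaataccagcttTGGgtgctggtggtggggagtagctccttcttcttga
mt-Ts1 is the light-strand tRNA for serine, 69 bases long, and its last 3 bases lie opposite the end of mt-Co1 on the other strand. mt-Tw is the heavy-strand tRNA for tryptophan, 67 bases long, and shares 2 bases with the end of mt-Nd2. mt-Tl1 is the heavy-strand tRNA for leucine, 75 bases long, which stands between mt-Rnr2 and mt-Nd1 with 0 bases between them. mt-Tp is the light-strand tRNA for proline, 67 bases long. The libraries were made from captured poly(A) RNA, so a count on a tRNA row can come from a mature tRNA or from a longer RNA that still holds it, and the table does not tell these apart.

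In these libraries of captured poly(A) RNA the protein genes had the highest levels on average and the tRNA genes the lowest. Capture can differ between classes of RNA, so this order describes the libraries and not the amounts of RNA in the kidney. Per kb of gene and in counts per M (CPM, scaled between libraries by TMM), the 12 heavy-strand protein genes averaged between 21140 (mt-Nd5, a complex I subunit) and 95182 (mt-Atp6, an ATP synthase subunit) over the 9 libraries. Both rRNA genes averaged less, 11234 for mt-Rnr1 (the small ribosomal subunit) and 11073 for mt-Rnr2 (the large subunit), but this order did not hold in each library. In HFD-STZ vehicle 1, NCD vehicle 2 and NCD vehicle 3 both exceeded mt-Nd5 and mt-Nd4l, as in NCD vehicle 2 with 10034 and 10179 CPM per kb against 6461 and 8449. The light-strand protein gene mt-Nd6, also of complex I, averaged 3602 CPM per kb. The tRNA genes came last, from 972 CPM per kb for mt-Ts1 and 304 for mt-Tw down to 0.0475 for mt-Tf, the tRNA for phenylalanine, with 1 count in all 9 libraries together. Of the 37 genes 27 passed the filter on low counts and were tested, among them all 13 protein genes, both rRNA genes and 12 of the 22 tRNA genes (7 heavy, 5 light).

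**Figure D1:**
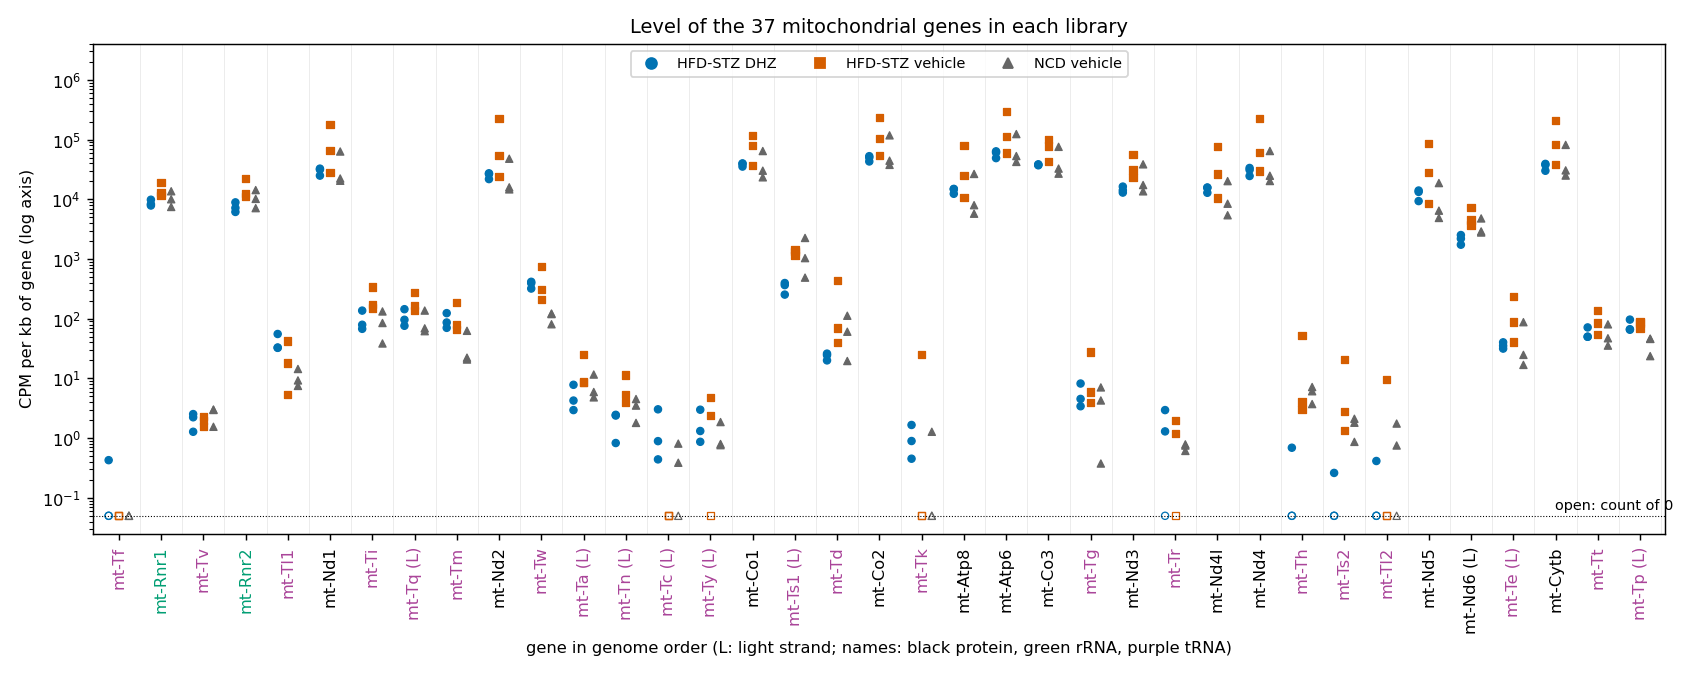
Level of each of the 37 mitochondrial genes in genome order, in CPM per kb on a log axis, with 1 point per library (circles HFD-STZ DHZ, squares HFD-STZ vehicle, triangles NCD vehicle; open symbols on the dotted line are counts of 0). The heavy-strand protein genes lie highest on average, the rRNA genes overlap the lowest of them in single libraries, mt-Nd6 lies below both rRNA genes, and the tRNA genes range from 972 CPM per kb on average for mt-Ts1 to near 0.

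The 10 tRNA genes not tested were mt-Tf, mt-Tv, mt-Tn, mt-Tc, mt-Ty, mt-Tk, mt-Tr, mt-Th, mt-Ts2 and mt-Tl2, none with more than 26 counts in any library. Of these, 2 neighbours on the heavy strand between mt-Nd4 and mt-Nd5 stood out after their values were seen. mt-Th, the tRNA for histidine, had 0, 3 and 0 counts in HFD-STZ DHZ libraries, 5, 26 and 5 in HFD-STZ vehicle libraries and 9, 6 and 16 in NCD vehicle libraries. Its counts in HFD-STZ DHZ were all below those of either other group, although those libraries had 27.6 to 47.5 M total counts, against 15.1 to 34.9 M in the others. mt-Ts2, the other tRNA for serine, had 0, 1 and 0 counts in HFD-STZ DHZ, 3, 9 and 2 in HFD-STZ vehicle and 2, 3 and 2 in NCD vehicle. Another untested gene, mt-Tc, went the other way against HFD-STZ vehicle, with 2, 13 and 1 counts in HFD-STZ DHZ against 0 in each library. In NCD vehicle mt-Tc had 1, 0 and 1 counts. A count of 0 allows up to 3 counts, or 0.109 per M total counts in HFD-STZ DHZ 1 and 3 (counting error only).

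The mitochondrial genes together took 46.3%, 43.1% and 46.0% of all counts in HFD-STZ DHZ libraries, 45.0%, 60.4% and 52.4% in HFD-STZ vehicle libraries and 51.5%, 41.5% and 39.2% in NCD vehicle libraries. The groups overlapped, with means of 45.2% ± 1.79, 52.6% ± 7.68 and 44.0% ± 6.53 (SD, n = 3 each). All counts here include unprocessed pseudogenes, a class that holds most of the nuclear copies described below. With that class left out of the total, the shares were 54.3% to 59.6% in HFD-STZ DHZ, 57.1% to 81.9% in HFD-STZ vehicle and 48.4% to 68.8% in NCD vehicle. These overlapped as well. Nearly all of the mitochondrial counts fell on protein genes, which held 91.2% to 97.1% of them. The rRNA genes took 2.13%, 3.20% and 2.41% of all counts in HFD-STZ DHZ, 3.96%, 1.75% and 2.05% in HFD-STZ vehicle and 2.57%, 3.62% and 3.00% in NCD vehicle. Per 100 protein counts there were 4.82, 8.03 and 5.52 rRNA counts in HFD-STZ DHZ, 9.64, 2.98 and 4.07 in HFD-STZ vehicle and 5.26, 9.55 and 8.29 in NCD vehicle, which overlapped as well. In whole kidney, fewer cells rich in mitochondria and less mitochondrial RNA per cell cannot be told apart.

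The tRNA genes took 0.00871% to 0.0195% of all counts. Their balance between strands set HFD-STZ DHZ apart from both other groups, which overlapped each other. For every 100 counts on heavy-strand tRNA genes there were 88.6, 82.3 and 75.5 counts on light-strand tRNA genes in HFD-STZ DHZ libraries, 308, 99.4 and 200 in HFD-STZ vehicle libraries and 476, 230 and 387 in NCD vehicle libraries. Every HFD-STZ DHZ library lay below every library of the other groups. The summed counts behind this were 1369 to 3510 heavy and 1033 to 2887 light in HFD-STZ DHZ, 722 to 1287 and 1011 to 2570 in HFD-STZ vehicle, and 456 to 807 and 1048 to 3287 in NCD vehicle. mt-Ts1 made up most of the light-strand count. Without it the ratio was 36.4, 31.7 and 31.5 in HFD-STZ DHZ, 50.0, 32.1 and 45.9 in HFD-STZ vehicle and 54.5, 52.0 and 40.3 in NCD vehicle, and only HFD-STZ DHZ and NCD vehicle stayed apart. mt-Tw in turn held much of the heavy-strand count in HFD-STZ DHZ, with 947 of 1644, 1711 of 3510 and 738 of 1369. It held 262 of 722, 378 of 1017 and 521 of 1287 in HFD-STZ vehicle. In NCD vehicle it held 153 of 690, 193 of 456 and 212 of 807. The ratio without both genes was not calculated, so these values do not show a shift over all tRNA genes of a strand. These ratios are given as a description and were not tested. Among protein genes, mt-Nd6 had 0.319, 0.450 and 0.259 counts per 100 heavy-strand protein counts in HFD-STZ DHZ, 0.578, 0.211 and 0.333 in HFD-STZ vehicle and 0.368, 0.540 and 0.684 in NCD vehicle, with overlap between all groups.

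**Figure D2:**
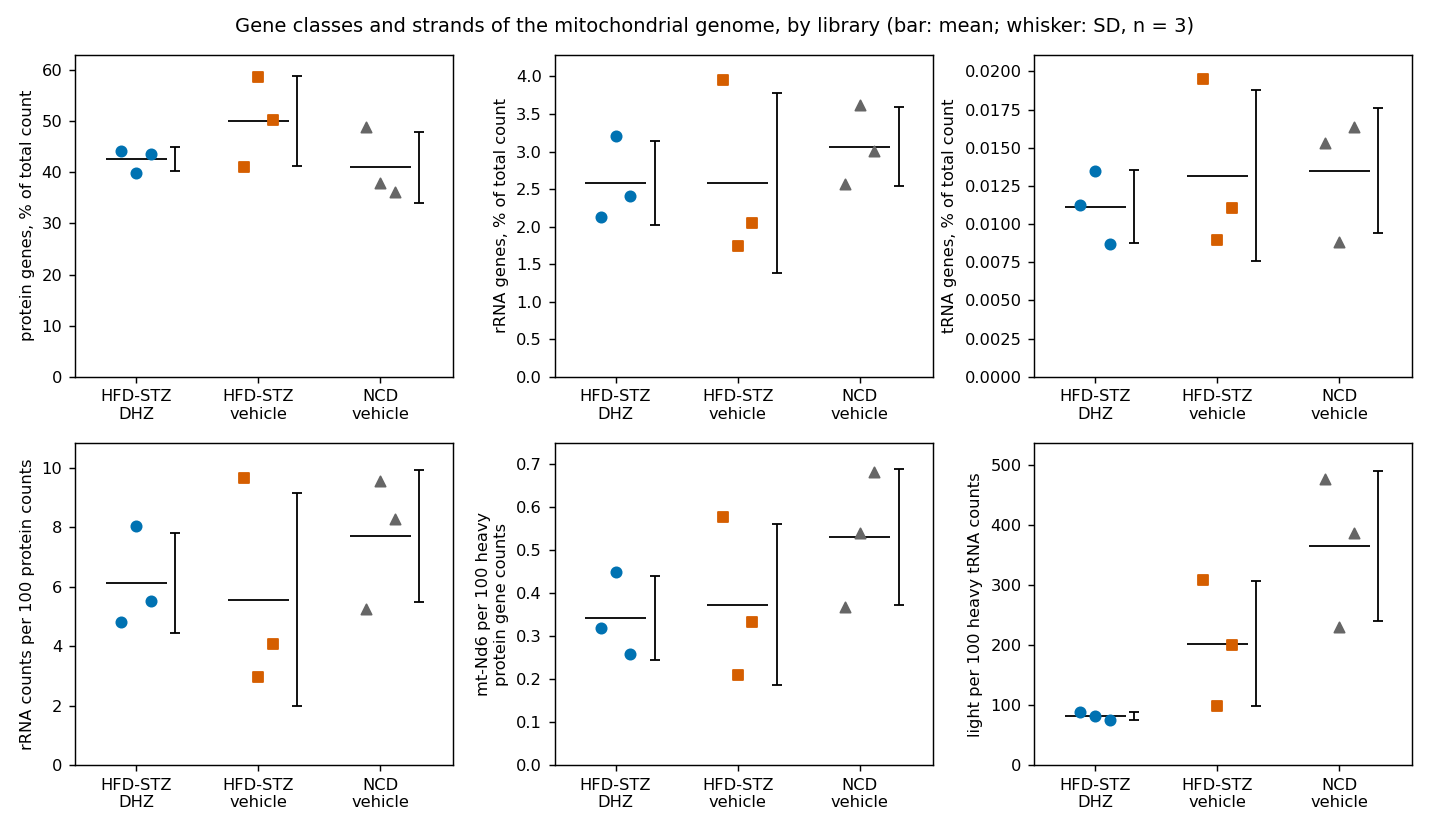
Each panel plots 1 class measure by library (points), with the group mean (bar) and SD (whisker, n = 3): the share of all counts on protein, rRNA and tRNA genes, rRNA per 100 protein counts, mt-Nd6 per 100 heavy-strand protein counts, and light per 100 heavy tRNA counts. The groups overlap in the first 5 panels. In the last the HFD-STZ DHZ libraries sit at 75.5 to 88.6, below all others, and the other groups overlap.

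The first comparison asked how the mitochondrial genes differed in kidneys of diabetic mice from those of mice on the normal diet (HFD-STZ vehicle against NCD vehicle). No member was called at an adjusted p below 0.05 in edgeR's quasi-likelihood test, where 0.0524% of all 17179 genes tested were called. At an unadjusted p below 0.05 there were 9 of 27, beside 7.43% of all genes, and DESeq2 called 1, mt-Tw, beside 0.728%. All 27 estimates were higher in HFD-STZ vehicle, with a median log2 fold change of 1.26 over the 13 protein genes, 0.52 over both rRNA genes and 1.28 over the 12 tested tRNA genes, against −0.0031 over all genes. The median of the protein genes was 0.41 without HFD-STZ vehicle 2, 1.97 without NCD vehicle 1, and 0.28 when libraries were scaled by size only, where the median of all genes moved to −0.74. With that scaling the estimates of mt-Co3, mt-Nd3, mt-Nd6, mt-Rnr1, mt-Rnr2, mt-Ta, mt-Ts1 and mt-Tt were below 0.

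The HFD-STZ vehicle libraries lay far apart in the protein genes. mt-Nd5 had 15360, 159115 and 50739 CPM in HFD-STZ vehicle libraries against 34175, 11785 and 8901 in NCD vehicle libraries (log2 fold change 2.04, SE 0.81, adjusted p = 0.612). mt-Nd4l, another complex I subunit, had 3121, 23110 and 7918 CPM against 5998, 2509 and 1608 (1.76, SE 0.69, adjusted p = 0.603). In both genes HFD-STZ vehicle 1 lay within the range of NCD vehicle and HFD-STZ vehicle 2 far above it, and without HFD-STZ vehicle 2 the estimates were 0.86 and 0.72. HFD-STZ vehicle 1 was also the only library of its group without Y-linked transcripts above 10 counts per M. NCD vehicle 1 was the only one of its group with them. Within both groups the libraries with Y-linked transcripts had the higher values of both genes. In HFD-STZ DHZ the library with them, HFD-STZ DHZ 3, had the highest mt-Nd5, with 25618 CPM against 24301 and 17047. For mt-Nd4l it had 4632 CPM against 4690 and 3823, and was not the highest. The part of this in the spread was not tested. Of the tested members 4 did not overlap in CPM between HFD-STZ vehicle and NCD vehicle, or 4 of 27 beside 11.4% of all genes tested. All of them were tRNA genes (mt-Ti, mt-Tm, mt-Tw and mt-Tp). The lowest p was that of mt-Tw, with 14.2, 51.0 and 20.9 CPM in HFD-STZ vehicle against 8.18, 8.02 and 5.42 in NCD vehicle (1.98, SE 0.40, adjusted p = 0.135).

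The second comparison asked how mitochondrial genes differed in diabetic kidneys after dehydrozingerone (HFD-STZ DHZ against HFD-STZ vehicle). It shares the HFD-STZ vehicle libraries with the first, so its direction is not independent of it. All 13 protein genes, both rRNA genes and 11 of the 12 tested tRNA genes had estimates lower in HFD-STZ DHZ (mt-Tl1 was higher), 10 of the 27 being above 0 instead when libraries were scaled by size only. The test called 2 members, both lower and both on the light strand: mt-Ts1 and mt-Nd6. That is 2 of 27, where 22.1% of all genes tested were called, 12% lower and 10% higher. The median log2 fold change was −1.42 over the protein genes, −0.90 over the rRNA genes and −0.92 over the tRNA genes, against 0.042 over all genes, and without HFD-STZ vehicle 2 these medians were −0.62, −0.59 and −0.40. DESeq2 called 12 members, among them 6 protein genes and both rRNA genes, all lower, beside 27.4% of all genes. With scaling by library size only, which moved the median of all genes to 0.81, the protein median was −0.28 and no member was called.

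mt-Ts1 (ENSMUSG00000064352) had 25.3, 27.3 and 17.5 CPM in HFD-STZ DHZ libraries, against 101, 92.4 and 79.4 in HFD-STZ vehicle libraries and 156, 33.7 and 71.5 in NCD vehicle libraries. All HFD-STZ DHZ values lay below all others. It fell to 0.257 of the level in HFD-STZ vehicle (log2 fold change −1.96, SE 0.44, adjusted p = 0.0115), and the adjusted p stayed between 0.00333 and 0.0498 when any 1 of the 9 libraries was left out. Against NCD vehicle it was also called lower (−1.89, SE 0.44, adjusted p = 0.0206), but not without NCD vehicle 1 (−1.17, adjusted p = 0.0787), HFD-STZ DHZ 1 (0.0818), HFD-STZ DHZ 2 (0.0735) or HFD-STZ DHZ 3 (0.0562). Relative to all mitochondrial counts it stood at 67.2, 86.5 and 47.4 per M in HFD-STZ DHZ, 274, 50.0 and 108 in HFD-STZ vehicle and 218, 114 and 298 in NCD vehicle. On that scale HFD-STZ vehicle 2 fell among the HFD-STZ DHZ libraries, and the fit scaled to the summed mitochondrial counts gave −1.10 (adjusted p = 0.301) against HFD-STZ vehicle.

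mt-Ts1 is the light-strand gene that borders mt-Co1, whose messenger RNA in humans is known to run on through the sequence opposite this tRNA. Per M mt-Co1 counts there were 415, 500 and 284 mt-Ts1 counts in HFD-STZ DHZ, 1765, 512 and 652 in HFD-STZ vehicle and 1564, 722 and 1980 in NCD vehicle, so the HFD-STZ DHZ libraries were again lowest. The kit marks strand, but the strand setting of the counting is not given, so reads of the tRNA and of heavy-strand RNA over the same bases cannot be told apart, here or in the other light-strand genes.

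mt-Nd6 (ENSMUSG00000064368) is the protein gene of the light strand, and its end shares 14 bases with that of mt-Nd5 on the opposite strand. It had 1140, 1309 and 902 CPM in HFD-STZ DHZ libraries, against 1932, 3774 and 2334 in HFD-STZ vehicle libraries and 2485, 1444 and 1506 in NCD vehicle libraries. The HFD-STZ DHZ libraries were below all others. The difference from HFD-STZ vehicle was called (−1.26, SE 0.39, adjusted p = 0.0371), and that from NCD vehicle was not (−0.70, SE 0.39, adjusted p = 0.233). The first was lost in 7 of the 9 fits that leave out 1 library, with adjusted p from 0.0519 without NCD vehicle 3 to 0.121 without HFD-STZ DHZ 1, and held without NCD vehicle 1 (0.0259) or HFD-STZ vehicle 1 (0.0319). It was 0.0827 with the replicate block, and relative to the summed mitochondrial counts the estimate was −0.12 (adjusted p = 0.898).

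**Figure D3:**
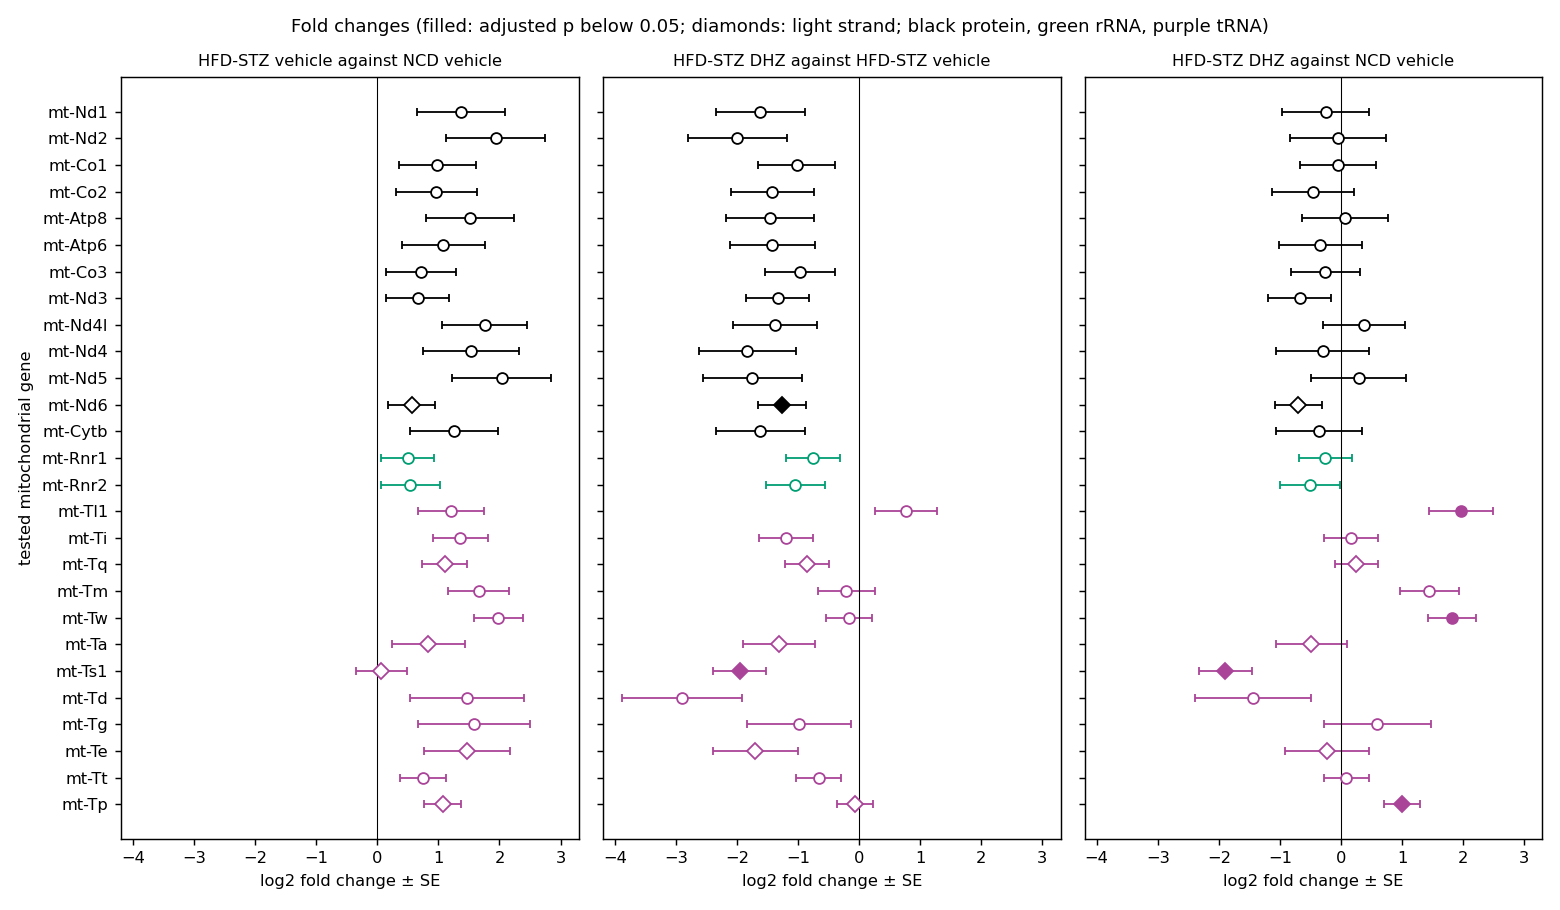
Log2 fold change with its SE for the 27 tested mitochondrial genes in the 3 comparisons (black protein, green rRNA, purple tRNA genes; diamonds on the light strand; filled symbols have an adjusted p below 0.05). The estimates of the first 2 panels lie on opposite sides of 0 but for mt-Tl1, with the shared HFD-STZ vehicle libraries in both. The filled symbols are mt-Ts1 and mt-Nd6 in the middle panel and mt-Tl1, mt-Tw, mt-Tp and mt-Ts1 in the right panel.

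The heavy-strand protein genes had wide errors in this comparison, with HFD-STZ vehicle libraries far apart. mt-Atp6 had 43355, 33392 and 41313 CPM in HFD-STZ DHZ libraries, 40833, 198680 and 76437 in HFD-STZ vehicle libraries and 84348, 36156 and 28858 in NCD vehicle libraries (−1.42, SE 0.69, adjusted p = 0.154 against HFD-STZ vehicle). Its values were close together in HFD-STZ DHZ and spread in both other groups. mt-Nd3, a complex I subunit with the lowest p among the heavy-strand protein genes, had 4514, 5689 and 4939 CPM, against 7993, 19452 and 10761 in HFD-STZ vehicle (−1.34, SE 0.52, adjusted p = 0.0823). Its groups did not overlap, which also held for mt-Co2 and mt-Co3, both of complex IV. Over all members the groups did not overlap in 11 of 27, beside 39.8% of all genes tested. The other heavy-strand protein genes had estimates from −1.99 (mt-Nd2) to −0.97 (mt-Co3).

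The rRNA genes were lower in every HFD-STZ DHZ library than in any HFD-STZ vehicle library, although scaling by library size only turned the estimate of mt-Rnr1 to 0.14. mt-Rnr1 (ENSMUSG00000064337) had 7523, 9401 and 7940 CPM against 12351, 18499 and 11095 (−0.75, SE 0.44, adjusted p = 0.228), and 13042, 9582 and 7120 in NCD vehicle. mt-Rnr2 (ENSMUSG00000064339) had 9729, 14068 and 11362 CPM against 20069, 34884 and 17563 (−1.04, SE 0.49, adjusted p = 0.141), and 22611, 16103 and 11267 in NCD vehicle. Neither passed the test in this comparison, and against NCD vehicle their estimates were −0.26 (adjusted p = 0.722) and −0.51 (adjusted p = 0.503). Their ratio to each other, which no scaling between libraries can move, was 77.3, 66.8 and 69.9 mt-Rnr1 counts per 100 mt-Rnr2 counts in HFD-STZ DHZ, 61.5, 53.0 and 63.2 in HFD-STZ vehicle and 57.7, 59.5 and 63.2 in NCD vehicle. All HFD-STZ DHZ libraries were above all others.

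The third comparison set diabetic kidneys after dehydrozingerone beside those of the normal diet (HFD-STZ DHZ against NCD vehicle) and shares libraries with both others. Of the 27 members 4 were called, all tRNA genes, where 13.7% of all genes tested were called, 7.38% lower and 6.31% higher. mt-Tl1, mt-Tw and mt-Tp were higher and mt-Ts1 was lower. Among protein genes 10 of 13 estimates were below 0 with a median of −0.25, which was 0.40 without NCD vehicle 1 and 0.0089 by library size only. The rRNA genes had −0.26 and −0.51, and the median over all genes was 0.0058. The groups did not overlap in CPM in 6 of 27 members, beside 44.1% of all genes tested. No member was called without HFD-STZ DHZ 1 or HFD-STZ DHZ 2, where 112 and 245 genes were called in all, against 2352 with every library. The test called 1 member of 259 genes without NCD vehicle 1, and 2 members without NCD vehicle 2 (779 genes), NCD vehicle 3 (1675) or HFD-STZ DHZ 3 (1627).

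mt-Tw (ENSMUSG00000064346) had 27.8, 26.4 and 21.5 CPM in HFD-STZ DHZ libraries, 14.2, 51.0 and 20.9 in HFD-STZ vehicle libraries and 8.18, 8.02 and 5.42 in NCD vehicle libraries. Both HFD-STZ groups lay wholly above NCD vehicle, HFD-STZ DHZ by 3.51-fold (log2 fold change 1.81, SE 0.39, adjusted p = 0.0173), and they overlapped with each other (−0.17, SE 0.38, adjusted p = 0.776). The call against NCD vehicle was lost without NCD vehicle 1 (0.0620), HFD-STZ DHZ 1 (0.0711) or HFD-STZ DHZ 2 (0.0645). Relative to all mitochondrial counts, mt-Tw stood at 74.1, 83.5 and 58.1 per M in HFD-STZ DHZ, 38.5, 27.6 and 28.6 in HFD-STZ vehicle and 11.5, 27.2 and 22.6 in NCD vehicle. On this scale all 3 groups were apart, in descending order from HFD-STZ DHZ to NCD vehicle. Set against its neighbour mt-Nd2, HFD-STZ DHZ was again highest, with 983, 1165 and 781 mt-Tw counts per M mt-Nd2 counts, against 576, 220 and 374 in HFD-STZ vehicle and 165, 486 and 356 in NCD vehicle.

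mt-Tl1 (ENSMUSG00000064340), one of the 2 tRNAs for leucine, had 2.44, 4.16 and 2.47 CPM in HFD-STZ DHZ libraries, from 83, 270 and 85 counts. It had 1.36, 0.405 and 3.17 CPM in HFD-STZ vehicle libraries and 0.695, 1.08 and 0.562 in NCD vehicle libraries, from 3 to 79 counts. HFD-STZ DHZ was above all NCD vehicle libraries (1.97, SE 0.52, adjusted p = 0.0302) and overlapped HFD-STZ vehicle (0.77, SE 0.50, adjusted p = 0.283). The call was lost without any 1 of the NCD vehicle libraries (0.112, 0.0583 and 0.0902), without HFD-STZ DHZ 1 (0.0811) or 2 (0.121), and with the replicate block (0.0708). Per M counts of its neighbour mt-Rnr2 there were 251, 296 and 218 in HFD-STZ DHZ, 67.5, 11.6 and 181 in HFD-STZ vehicle and 30.7, 67.1 and 49.9 in NCD vehicle, with HFD-STZ DHZ above both.

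mt-Tp (ENSMUSG00000064372) had 4.38, 6.48 and 4.48 CPM in HFD-STZ DHZ libraries, 5.96, 5.66 and 4.57 in HFD-STZ vehicle libraries and 3.10, 3.07 and 1.58 in NCD vehicle libraries. NCD vehicle was below both HFD-STZ groups. The difference between HFD-STZ DHZ and NCD vehicle was called (1.00, SE 0.30, adjusted p = 0.0422), not so without any 1 of the HFD-STZ DHZ or NCD vehicle libraries (0.0586 to 0.170), with the replicate block (0.0593) or when scaled on nuclear protein-coding genes (0.0577). The estimate between the HFD-STZ groups was −0.069 (SE 0.29, adjusted p = 0.886).

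Of the tRNA genes not called, mt-Tm, the tRNA for methionine, was near the threshold. It had 5.97, 8.56 and 4.86 CPM in HFD-STZ DHZ, 4.55, 13.1 and 5.58 in HFD-STZ vehicle and 4.33, 1.54 and 1.43 in NCD vehicle, with HFD-STZ DHZ above NCD vehicle (1.45, SE 0.48, adjusted p = 0.0648). mt-Td, the tRNA for aspartate, had 1.82, 1.40 and 1.72 CPM in HFD-STZ DHZ, 2.76, 30.8 and 4.90 in HFD-STZ vehicle and 7.86, 1.37 and 4.24 in NCD vehicle. Its estimate against HFD-STZ vehicle was −2.90 (SE 0.98, adjusted p = 0.0701), and without HFD-STZ vehicle 2, which held the 30.8, it was −1.23 (adjusted p = 0.155). The remaining tested tRNA genes (mt-Ti, mt-Tq, mt-Ta, mt-Tg, mt-Te and mt-Tt) had estimates of −1.70 to −0.67 against HFD-STZ vehicle and −0.48 to 0.60 in HFD-STZ DHZ against NCD vehicle, none of them called.

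The share of each gene in the summed mitochondrial counts does not depend on the scaling between libraries. Between HFD-STZ DHZ and NCD vehicle this share did not overlap for 12 of the 27 tested members, 7 of them protein genes, beside 15.1% of all genes tested read on the same scale. In CPM 44.1% of all genes did not overlap. For nuclear genes the scale is a ratio to the mitochondrial counts, whose part of the library varied, so percentages on it are not a like background. The shares of the members add up to a whole, so a rise in some goes with a fall in others. Per M mitochondrial counts, HFD-STZ DHZ was higher in mt-Nd2 (73869 ± 1931 against 63019 ± 6823, SD, n = 3 each), mt-Co1 (167361 ± 5525 against 149385 ± 9482), mt-Nd4l (12379 ± 245 against 7871 ± 1021) and mt-Nd5 (62688 ± 7929 against 41639 ± 5595). HFD-STZ DHZ was lower in mt-Co2 (94081 ± 1852 against 107902 ± 4995), mt-Atp6 (111014 ± 4941 against 120329 ± 2297) and mt-Nd3 (14469 ± 3138 against 19685 ± 853). Between HFD-STZ DHZ and HFD-STZ vehicle no protein gene and 4 tRNA genes were apart (mt-Tl1, mt-Tm and mt-Tw higher, mt-Td lower), or 4 of 27 beside 39.9% of all genes. Between HFD-STZ vehicle and NCD vehicle 4 of 27 were apart (mt-Tm and mt-Tw higher, mt-Co2 and mt-Atp6 lower), beside 4.58% of all genes. None of the 27 was called in any comparison when the fit itself was scaled to the summed mitochondrial counts, a setting added after the data were seen. It called 5 genes of all tested between HFD-STZ DHZ and NCD vehicle, 69 between HFD-STZ DHZ and HFD-STZ vehicle and 11 between HFD-STZ vehicle and NCD vehicle, and at an unadjusted p below 0.05 the members were mt-Tl1, mt-Tm, mt-Tw and mt-Ts1 in the first of these, mt-Tl1 in the next and none in the last.

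**Figure D4:**
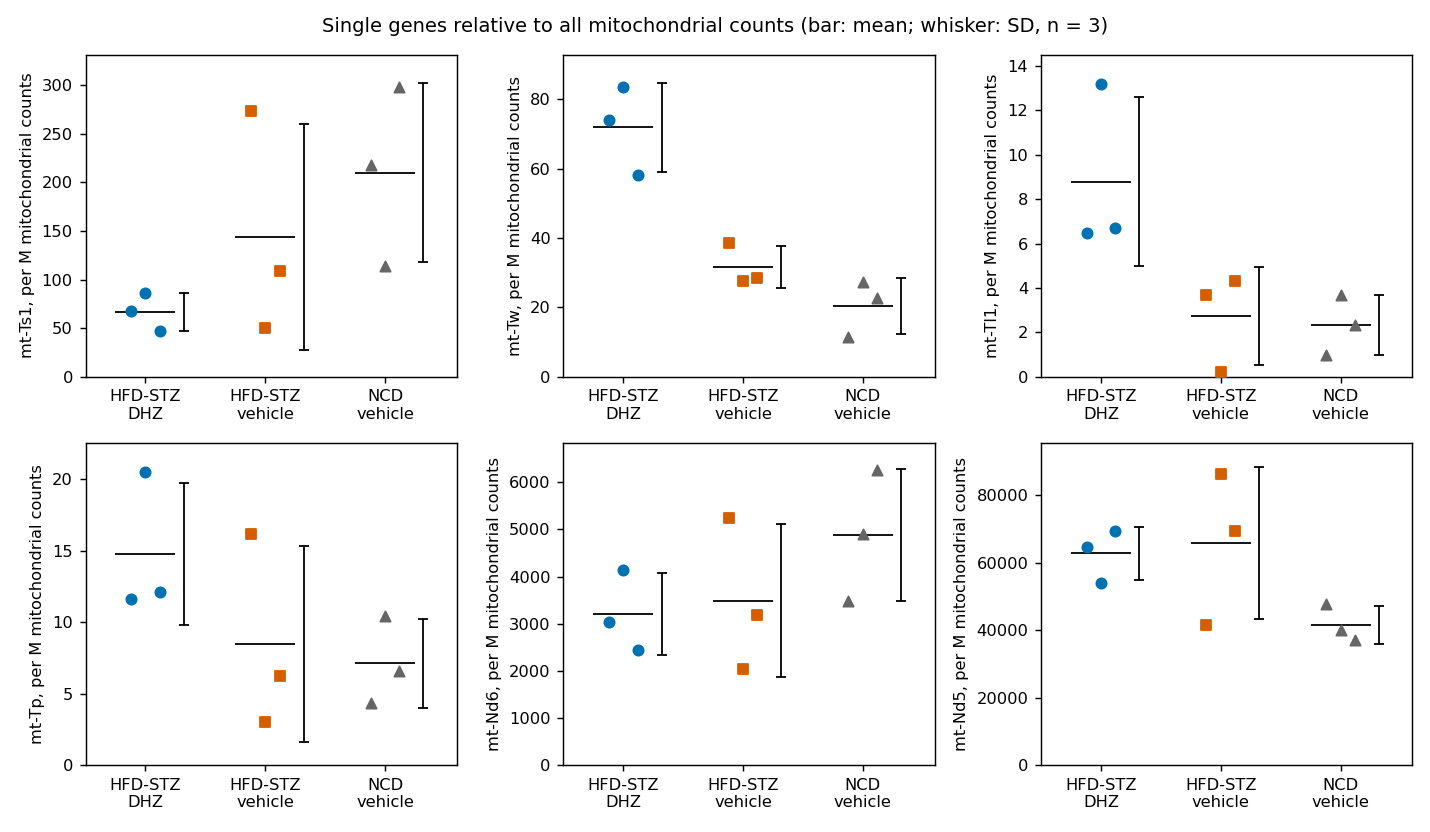
Counts of 6 mitochondrial genes per M mitochondrial counts, by library (points), with the group mean (bar) and SD (whisker, n = 3). mt-Tw lies highest in HFD-STZ DHZ (58.1 to 83.5) and lowest in NCD vehicle (11.5 to 27.2), mt-Ts1 overlaps between the HFD-STZ groups through 1 library at 50.0, and in mt-Nd5 NCD vehicle lies below HFD-STZ DHZ and overlaps HFD-STZ vehicle through 1 library at 41635.

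Some mitochondrial genes overlap, so that a read can lie in both. mt-Atp8, a small ATP synthase subunit of 204 bases, shares its last 43 bases with mt-Atp6, and mt-Nd4l shares its last 7 with mt-Nd4. Both pairs are carried on 1 messenger RNA each. The shared bases are in capitals, in the whole of mt-Atp8 and in the last 60 bases of mt-Nd4l.
mt-Atp8: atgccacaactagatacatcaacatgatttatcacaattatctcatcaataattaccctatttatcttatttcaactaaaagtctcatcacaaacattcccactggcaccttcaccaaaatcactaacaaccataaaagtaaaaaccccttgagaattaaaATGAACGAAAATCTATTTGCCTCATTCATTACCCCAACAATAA
mt-Nd4l: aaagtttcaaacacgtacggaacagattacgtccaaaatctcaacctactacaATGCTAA
Per 100 mt-Atp6 counts there were 6.94, 9.14 and 6.12 mt-Atp8 counts in HFD-STZ DHZ, 5.42, 8.20 and 6.71 in HFD-STZ vehicle and 6.44, 3.24 and 5.65 in NCD vehicle, with overlap between groups. In CPM, mt-Atp8 had 3011, 3053 and 2526 in HFD-STZ DHZ, 2213, 16286 and 5128 in HFD-STZ vehicle and 5433, 1173 and 1629 in NCD vehicle, and passed no test (adjusted p = 0.158 between the HFD-STZ groups). Per 100 mt-Nd4 counts, on the other hand, there were 10.2, 11.3 and 10.8 mt-Nd4l counts in HFD-STZ DHZ, 7.61, 7.43 and 9.34 in HFD-STZ vehicle and 6.75, 7.33 and 5.75 in NCD vehicle. All 3 groups were apart in this ratio. mt-Nd4 itself had 46173, 33877 and 42839 CPM in HFD-STZ DHZ, 40992, 310967 and 84762 in HFD-STZ vehicle and 88865, 34254 and 27954 in NCD vehicle (adjusted p = 0.112 between the HFD-STZ groups and 0.825 against NCD vehicle).

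Mouse chromosomes hold copies of mitochondrial DNA, and these bear on what a mitochondrial row measures. Of the pseudogenes in the table, 11 matched a member over at least 100 bases at 95% identity or more, and they took 20.5% to 22.2% of all counts in HFD-STZ DHZ, 21.1% to 26.2% in HFD-STZ vehicle and 19.1% to 25.1% in NCD vehicle. A block on chromosome 1 gave 7 of them, which copy mt-Co1 (in part), mt-Co2, mt-Atp6, mt-Co3, mt-Nd3, mt-Nd4l and mt-Nd4 (in part). The copies of mt-Co3, mt-Nd3 and mt-Nd4l held 97.3% to 99.6%, 97.3% to 98.2% and 96.8% to 97.4% of the count of their original in the 9 libraries. The copy of mt-Co2 held 97.6% to 98.3%. The copy of mt-Atp6, Gm10925, was the exception, with 141%, 138% and 138% of the count of mt-Atp6 in HFD-STZ DHZ, 127%, 151% and 135% in HFD-STZ vehicle and 129%, 127% and 126% in NCD vehicle. Reads of a gene and of a copy with the same bases cannot be told apart. The copy of mt-Nd3, Gm28438, differs from it in 1 of 345 bases, T3C counted from the first base of mt-Nd3, shown in capitals in the first 33 bases.
mt-Nd3: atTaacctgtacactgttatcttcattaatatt
Gm28438: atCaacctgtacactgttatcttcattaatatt
Adding the counts of the copies to the gene they copy left the same members called in all 3 comparisons. None of the called members has such a copy, and the called tRNA genes, 67 to 75 bases long, could not have matched over 100 bases. The counts of the called members themselves did not change in that fit. It therefore cannot show whether those calls depend on nuclear copies.

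Partial copies give a count over 1 stretch of a transcript, as far as their rows count reads of the mitochondrial gene. Gm29216 covers the last 31.3% of mt-Co1, bases 1063 to 1545. Its count equalled 33.3%, 35.8% and 32.2% of that of mt-Co1 in HFD-STZ DHZ libraries, 40.2%, 37.7% and 33.5% in HFD-STZ vehicle libraries and 44.9%, 41.1% and 46.3% in NCD vehicle libraries. Both HFD-STZ groups were below NCD vehicle, and HFD-STZ DHZ was near the share of the length. Gm28439 covers the first 63.6% of mt-Nd4, bases 1 to 876. Its count equalled 52.0%, 47.3% and 49.8% of that of mt-Nd4 in HFD-STZ DHZ, 35.6%, 46.4% and 45.5% in HFD-STZ vehicle and 38.2%, 35.0% and 34.1% in NCD vehicle. HFD-STZ DHZ was above both other groups here. Read in this way, a smaller share of counts fell on the 3′ end of mt-Co1 and a larger share on the 5′ part of mt-Nd4 in HFD-STZ DHZ than in NCD vehicle. The part of this in the values of single genes and tRNA rows was not tested.

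**Figure D5:**
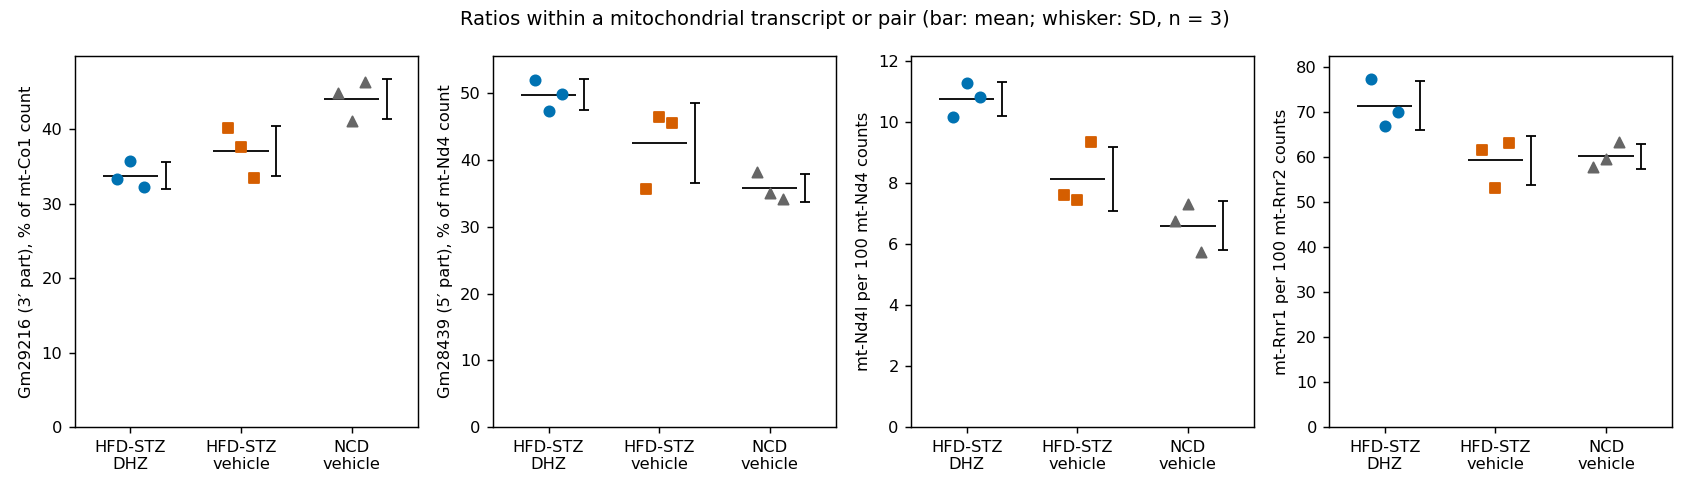
Ratios of counts within a transcript or pair, by library (points), with the group mean (bar) and SD (whisker, n = 3): the 3′ part of mt-Co1 and the 5′ part of mt-Nd4 as read from their partial nuclear copies, mt-Nd4l per 100 mt-Nd4 counts and mt-Rnr1 per 100 mt-Rnr2 counts. HFD-STZ DHZ is lowest in the first panel, where it overlaps HFD-STZ vehicle, and above both other groups in the other 3.

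Nuclear genes supply all proteins that copy, transcribe, process and translate the mitochondrial genome, and most subunits of its complexes. In HFD-STZ vehicle against NCD vehicle no member of the 5 lists was called, as 0.0524% of all genes were. In HFD-STZ DHZ against HFD-STZ vehicle 2 of 16 tested genes of mitochondrial DNA replication and transcription were called higher and 1 lower, 2 of 25 genes of RNA processing and decay higher and 0 lower, and 6 of 28 translation factors and tRNA synthetases higher and 3 lower. Of the mitochondrial ribosome proteins 15 of 77 were called higher and 1 lower (median log2 fold change 0.34), and of the nuclear subunits of the shared complexes 11 of 76 higher and 4 lower (0.23), beside 0.042 over all genes and 22.1% called. In HFD-STZ DHZ against NCD vehicle, where 13.7% of all genes were called, the counts were 2 higher and 0 lower, 1 and 0, 2 and 1, 9 and 1, and 2 and 1 in the same order of lists.

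Single genes of these lists went in both directions between HFD-STZ DHZ and HFD-STZ vehicle. Tefm, which keeps the mitochondrial RNA polymerase elongating, had 3.65, 4.12 and 2.88 CPM in HFD-STZ DHZ libraries against 1.14, 1.21 and 1.73 in HFD-STZ vehicle libraries and rose (1.36, SE 0.31, adjusted p = 0.0120). Tfb2m, an initiation factor of the same polymerase, also rose (0.67, SE 0.22, adjusted p = 0.0451). Polrmt, the polymerase itself, fell (−0.80, SE 0.23, adjusted p = 0.0278), with 4.44, 4.26 and 5.26 CPM against 6.67, 7.01 and 10.4. Fastkd5, which in human cells takes part in the maturation of mitochondrial RNAs that are not flanked by tRNAs, had 2.94, 2.47 and 1.69 CPM against 0.651, 0.809 and 0.602 and rose (1.82, SE 0.39, adjusted p = 0.00959). Wars2, the synthetase that charges the tRNA of mt-Tw with tryptophan, fell (−0.89, SE 0.22, adjusted p = 0.0154), with 4.29, 4.78 and 4.25 CPM against 8.89, 8.36 and 7.46.

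Among the subunits and ribosome proteins, Cox5a, a nuclear subunit of complex IV, averaged 37.9 ± 9.11 CPM in HFD-STZ DHZ and 9.06 ± 3.65 in HFD-STZ vehicle (SD, n = 3 each) and rose (edgeR, 2.04, SE 0.40, adjusted p = 0.00736), where the estimates of mt-Co1, mt-Co2 and mt-Co3 lay between −1.42 and −0.97. Atp5f1 of ATP synthase (1.86, SE 0.28, adjusted p = 0.00309) and Mrpl35 of the large mitochondrial ribosomal subunit (1.18, SE 0.23, adjusted p = 0.00669) rose as well. Against NCD vehicle Tfb2m (0.83, SE 0.22, adjusted p = 0.0284), Tefm (1.03, SE 0.29, adjusted p = 0.0387) and Atp5f1 (1.17, SE 0.27, adjusted p = 0.0202) were also called higher. Trmt10c, a part of the enzyme that cuts the 5′ ends of mitochondrial tRNAs, was called higher against NCD vehicle (0.87, SE 0.27, adjusted p = 0.0495), with 9.55, 10.9 and 6.86 CPM against 5.19, 3.95 and 5.80. Ndufb7 of complex I was lower (−0.86, SE 0.22, adjusted p = 0.0287).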

How the data were processed

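The authors deposited raw counts, 1 row per gene, for 9 libraries of whole kidney RNA, made as stranded libraries of captured poly(A) RNA, per the labels' protocols. FastQC, Trim Galore and STAR and build GRCm39 (mm39) are named in the submitters' processing notes. No version is named, and how reads were counted (program, strand, reads with several positions, gene models) is not stated in the sources used. Every row names a gene (0 without), and 0 other columns of per-sample values were present. Symbols, classes, strands, lengths and sequences came from GENCODE for GRCm38, an older build, so no coordinates are given; 94.08% of identifiers matched. Nuclear copies were found by aligning pseudogene transcripts to the 37 genes.

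Counts were tested in R 4.3.3 with edgeR 4.0.16 (quasi-likelihood test, filterByExpr, TMM, 3 groups in 1 fit, 6 residual degrees of freedom), with Benjamini-Hochberg adjustment over 17179 genes and a threshold of 0.05, two-sided. The procedure was tested on simulated data with the same spread for every gene, which does not cover the wide spread of the mitochondrial genes. CPM are counts per M of the TMM-scaled library. Alternatives used DESeq2 1.42.0, limma 3.58.1 (voom), other scalings and filters, and each library left out. Genes given by library are both rRNA genes, mt-Nd6, the heavy-strand protein genes with the highest and lowest count per kb, both overlapping pairs, the tRNA gene with the highest count on each strand, the member with the lowest p in each class and comparison, and every member called. Up to 4 genes of each nuclear list with the lowest p were candidates to be named. Others named were chosen after their values were seen, as were the ratios of a tRNA to its neighbour. The members and lists were chosen with earlier results of these data known. Ratios and shares have no test.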

Additional observations from a re-analysis of the deposited data

How the results depend on the processing

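Counts of genes called changed with the processing. In HFD-STZ vehicle against NCD vehicle 9 genes and 0 members were called, with 125 and 1 by DESeq2, 425 and 7 without a filter on low counts, 29 genes by library size only, 2 by limma-voom, 3 with only the 2 groups fitted, 42 with a term for libraries holding Y-linked transcripts (added after the data were seen), and 2 to 28 genes and 0 to 1 members with 1 library left out. In HFD-STZ DHZ against HFD-STZ vehicle (3796 genes, 2 members) 12 members of 4707 genes were called by DESeq2, 10 of 4633 without a filter, 1 of 3660 with the Y-linked term, 888 genes and 0 members by library size only, 69 and 0 when scaled to the summed mitochondrial counts (also added after the data were seen), and 1149 to 4086 genes and 1 to 6 members with 1 library left out. In HFD-STZ DHZ against NCD vehicle (2352 genes, 4 members) the counts were 7 members of 3380 genes without a filter, 3617 genes with the Y-linked term, 3981 with only the 2 groups, 36 and 0 by library size only, 5 and 0 by mitochondrial scaling, and 112 to 3706 genes and 0 to 5 members with 1 library left out. Fitting the replicate number as a block gave 2 genes in the first comparison, 2159 genes and 1 member in the second and 772 genes and 2 members in the third. The numbers were not taken to pair the libraries, as same-numbered libraries correlated at −0.409 to 0.224 and 1 of 9 correlated best with its own number.

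Protein gene medians, 1.26 and −1.42 in the first 2 comparisons, were 0.28 and −0.28 by library size only and 0.029 and −0.067 by mitochondrial scaling, and ran from 0.41 to 1.97 and from −1.85 to −0.62 with 1 library left out. Other values turned round. In HFD-STZ vehicle against NCD vehicle library size only gave −0.12 for mt-Nd3, −0.26 for mt-Nd6, −0.25 for mt-Rnr1, −0.24 for mt-Rnr2 and −0.39 for mt-Ts1, and mitochondrial scaling gave −0.16 for mt-Atp6, −0.33 for mt-Nd3, −0.49 for mt-Nd6, −0.46 for mt-Rnr1, −0.45 for mt-Rnr2, −0.11 for mt-Td and −0.54 for mt-Ts1. In HFD-STZ DHZ against HFD-STZ vehicle library size only gave 0.14 for mt-Rnr1, 0.69 for mt-Tp and 0.99 for mt-Tw, and mitochondrial scaling gave 0.046 for mt-Atp6, 0.17 for mt-Atp8, 0.22 for mt-Nd4l, 0.28 for mt-Rnr1, 0.057 for mt-Rnr2, 0.81 for mt-Tp and 1.19 for mt-Tw. There mt-Tw was also 0.059 with the Y-linked term and 0.068 by limma-voom, and mt-Tp 0.028 without a filter. In HFD-STZ DHZ against NCD vehicle mt-Atp8 was −0.048 when scaled on nuclear coding genes. With 1 library left out, values ran in that comparison from −0.61 to 0.28 for mt-Atp6, −0.30 to 1.04 for mt-Atp8, −0.59 to 0.40 for mt-Nd4 and −0.040 to 1.11 for mt-Nd5. Between the HFD-STZ groups they ran from −0.27 to 0.040 for mt-Tp and −0.52 to 0.53 for mt-Tw, and in HFD-STZ vehicle against NCD vehicle from −0.20 to 2.09 for mt-Td and −0.32 to 0.78 for mt-Ts1. None of the reversed values was called in either setting, and the cause was not tested.

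The log2 ratio of group means of rRNA per protein count was −0.16 to 0.80 between the HFD-STZ groups and −1.13 to −0.17 in HFD-STZ vehicle against NCD vehicle with 1 library left out, and that of tRNA per protein count −0.40 to 0.50 and −0.84 to 0.061. Without mt-Ts1 the tRNA ratio of HFD-STZ DHZ was 0.59 to HFD-STZ vehicle and 0.84 to NCD vehicle, beside −0.098 and −0.34 with it. The light to heavy ratio of tRNA genes alone was −1.30 and −2.15, beside −0.15 and −0.65 with protein genes. Counts limit the tRNA rows, 10 of which were too low to test.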
